A study of Danio rerio with 6 samples.

Results

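The transcripts described here reached 500 CPM in all 3 libraries of zebrafish trunk neural crest cells at 72 hours post fertilization (hpf) and were under 500 CPM in at least 1 of the 3 libraries at 36 hpf. They were chosen by these measured levels, where a CPM value is a transcript's estimated count per 1000000 estimated counts of its library. With mitochondrial transcripts left out, 69 of the 52216 listed Ensembl transcripts met this rule, out of 114 that reached 500 CPM in every 72 hpf library. Both stages came from embryos that carried the same pair of reporters, Gt(foxd3:mCherry), a gene trap at foxd3, and Tg(sox10:mEGFP), a transgene that marks membranes under sox10 control. Cells positive for both reporters were taken from trunks after the anterior part of the embryo had been cut away, in 3 samples at 72 hpf and 3 at 36 hpf, each of 1750 ± 750 cells. No further treatment, genotype or strain was given. The labels do not tell whether different clutches or days stand behind the replicates, so the spread between them may be technical.

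The neural crest arises beside the forming neural tube, migrates along fixed routes and gives rise to pigment cells, to neurons and glia of the peripheral nervous system and to other cell types. The transcription factors foxd3 and sox10 act early in this lineage, where foxd3 is known for keeping crest cells undifferentiated and sox10 for the pigment, glial and neuronal branches. Melanophores, xanthophores and iridophores are the pigment cells of the zebrafish trunk. The gene tables used here list genes and not Ensembl transcripts, and 0 of the 52216 identifiers were found in them. The transcripts are therefore described by identifier and length, with no gene name or role, and the cell type markers, foxd3 and sox10 included, were not analysed here.

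The libraries held 8502028, 7123251 and 11191844 estimated counts at 72 hpf and 10520927, 18322110 and 12933945 at 36 hpf, in replicates 1 to 3 of each stage. At least 10 counts were reached by 11511, 10548 and 18793 transcripts at 72 hpf and by 15089, 21068 and 20355 at 36 hpf, so that replicate 3 at 72 hpf lay within the range of the 36 hpf libraries and the other 72 hpf libraries under it. Depth was not a limit for most of the 69 transcripts. A level of 500 CPM stood for 3562 to 5596 counts at 72 hpf, where counting error gave a 95% interval of 2.62 to 3.28% to either side. Such intervals cover counting error only, since amplified reads without molecular identifiers are not independent molecules.

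The rule chose the transcripts by their levels at both stages, so every value of the 2 stages below describes the selection and none is a test of it. Together the 69 transcripts held 9.27, 10.1 and 8.52% of the counts in the 72 hpf libraries, against 1.90, 2.16 and 2.42% in the 36 hpf libraries. The mean was 9.31% ± 0.81 at 72 hpf and 2.16% ± 0.26 at 36 hpf (SD, n = 3 each). In bulk samples such as these, fewer cells that make a transcript and less of it in each cell cannot be told apart. The transcripts were not uniformly rare at 36 hpf, and being abundant only at 72 hpf holds for part of them. At 36 hpf, 43 were under 500 CPM in all 3 libraries, 15 in 2 libraries and 11 in a single library, and 15 of the 69 had a 36 hpf mean of 500 CPM or more. The number of transcripts that met the rule depended on which libraries it was applied to, and was 106 without replicate 2 at 72 hpf. Leaving out a 72 hpf library relaxes the rule and can only add transcripts, so the direction of this change was fixed beforehand.

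All 69 had a higher mean at 72 hpf, with ratios of the stage means that ran from 1.1 to 1590-fold around a median of 4.73-fold. The ratio was at least 50-fold in 5 transcripts, 10 to under 50-fold in 14, 5 to under 10-fold in 15, 2 to under 5-fold in 22 and under 2-fold in 13. The 19 transcripts at 10-fold or more held less of the 72 hpf counts than the rest of the 69 together. Those at 50-fold or more held 0.662, 0.715 and 0.899% of the counts at 72 hpf, against 0.00329, 0.00679 and 0.00944% at 36 hpf. Those from 10 to under 50-fold held 1.83, 1.85 and 1.89% at 72 hpf, against 0.109, 0.0944 and 0.0829% at 36 hpf. Those between 2 and 5-fold held 3.07, 3.77 and 2.33% at 72 hpf, against 0.690, 0.960 and 1.34% at 36 hpf. On the scale log2(CPM + 1), the median difference of the stage means was 2.24 over the 69, beside -0.00073 over the 17711 transcripts that passed the filter on low counts. Without replicate 3 at 72 hpf the median of the 69 was 2.52.

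**Figure D1:**
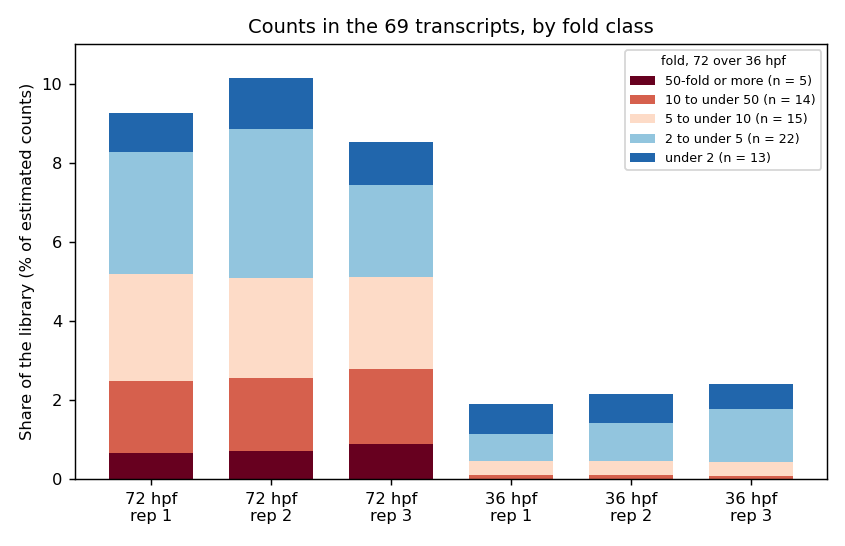
Share of each library's estimated counts (percent) held by the 69 transcripts, with 72 hpf libraries on the left and 36 hpf libraries on the right, split by the ratio of mean CPM at 72 hpf over 36 hpf. Each bar is 1 library; the bars reach 8.52 to 10.1% at 72 hpf and 1.90 to 2.42% at 36 hpf, and the class of 50-fold or more is too thin to be seen at 36 hpf.

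**Figure D2:**
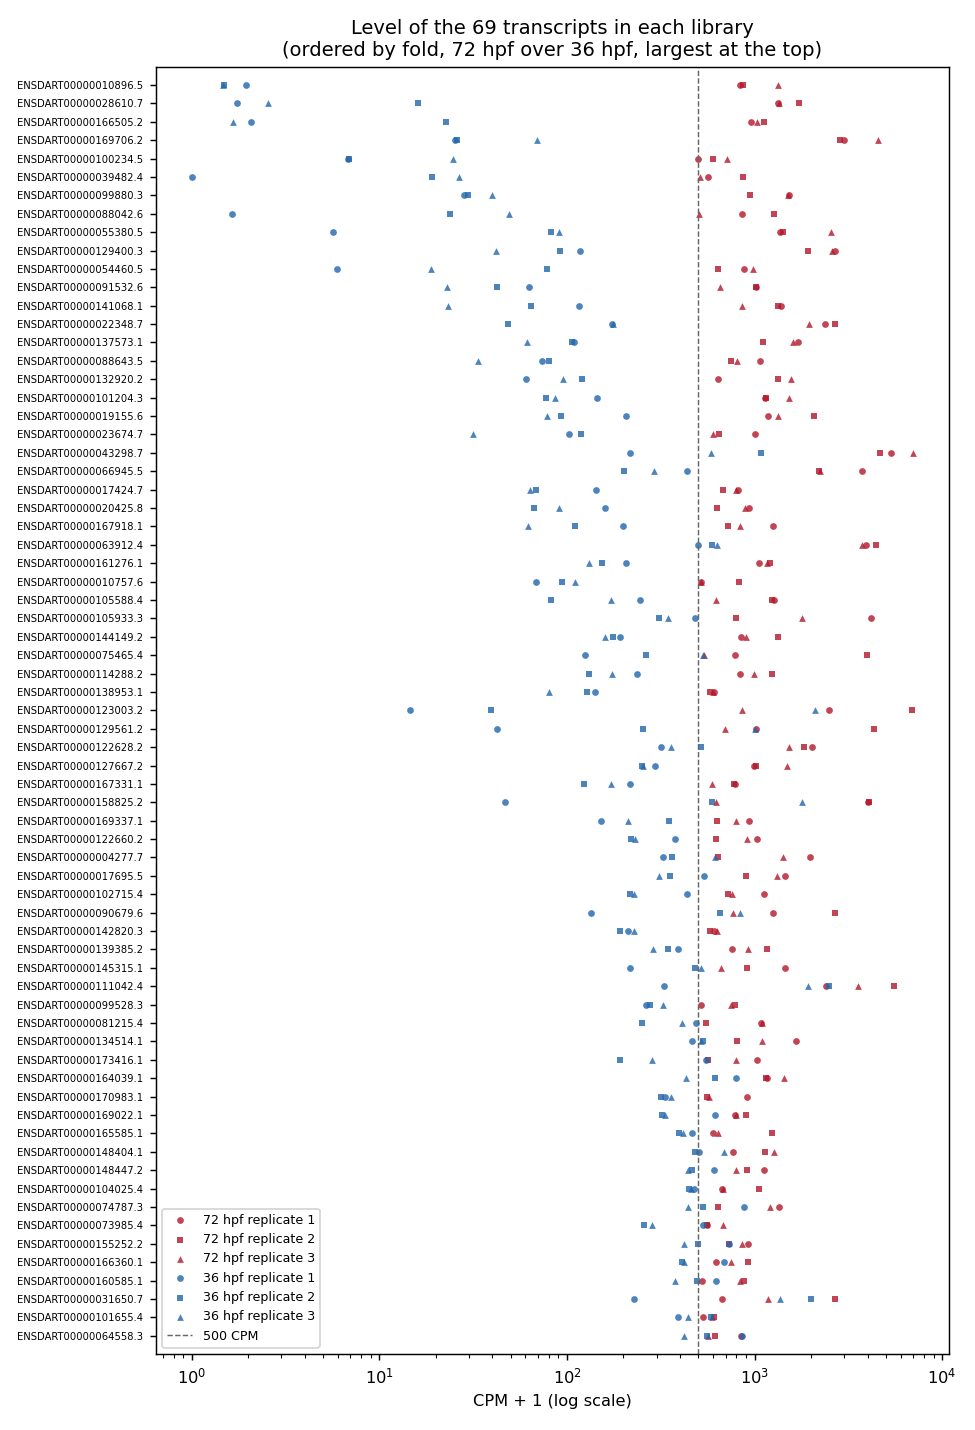
Level of each of the 69 transcripts in each library, as CPM + 1 on a log axis, with red symbols for 72 hpf and blue symbols for 36 hpf and a symbol shape for each replicate. Transcripts are ordered by the ratio of stage means, and the dashed line marks 500 CPM; the blue symbols lie far to the left of the red ones at the top and meet them at the bottom.

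The most abundant of the 69 at 72 hpf was ENSDART00000043298.7 (1699 bases), at 5304, 4639.9 and 7007 CPM in replicates 1 to 3 at 72 hpf, against 217, 1083 and 582 CPM at 36 hpf. It was the most abundant, the second and the sixth transcript in replicates 3, 1 and 2 at 72 hpf, and its lowest 72 hpf library lay above its highest 36 hpf library. ENSDART00000063912.4 (1950 bases) had 3917, 4458 and 3742 CPM at 72 hpf, against 495, 594 and 628 CPM at 36 hpf. This transcript entered the rule through replicate 1 at 36 hpf alone, and both its stages were tight, with a coefficient of variation (CV, the SD divided by the mean) of 0.0924 at 72 hpf and 0.120 at 36 hpf. These were also the only 2 of the 69 that stood among the 10 most abundant transcripts of every 72 hpf library.

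The next 4 in the order of mean level differed from one another in how the libraries behaved. ENSDART00000169706.2 (5062 bases) had 2991, 2849.6 and 4562 CPM at 72 hpf, against 24.3, 24.8 and 68.1 CPM at 36 hpf, a ratio of 88.7, the largest among these 6. ENSDART00000111042.4 (2302 bases) had 2396, 5565 and 3553 CPM at 72 hpf, against 326, 2485 and 1919 CPM at 36 hpf. Its stages overlapped, because replicate 2 at 36 hpf was above replicate 1 at 72 hpf. ENSDART00000123003.2 (6006 bases) had 2487, 6877 and 859 CPM at 72 hpf, against 13.5, 38.5 and 2108 CPM at 36 hpf. ENSDART00000158825.2 (1670 bases) had 4033, 4089 and 624 CPM at 72 hpf, against 45.9, 591 and 1780.2 CPM at 36 hpf. In both of these, replicate 3 at 36 hpf exceeded replicate 3 at 72 hpf, while the other libraries kept the stages apart. Of the 69, 20 were among the 100 most abundant transcripts in every 72 hpf library, and 9 were among the 100 most abundant in any 36 hpf library.

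The largest contrast was that of ENSDART00000010896.5 (2303 bases), with 833, 864 and 1332 CPM at 72 hpf, against 0.950, 0.491 and 0.464 CPM at 36 hpf. The 36 hpf values rested on 10, 9 and 6 counts, with exact 95% Poisson intervals of 0.456 to 1.75, 0.225 to 0.932 and 0.170 to 1.01 CPM. The means were 1009.8 ± 279 CPM at 72 hpf and 0.635 ± 0.273 CPM at 36 hpf (SD, n = 3 each). It was the only one of the 69 under 10 CPM in every 36 hpf library. Its estimated counts were whole numbers in all 6 libraries, so no division of its reads with other transcripts was seen.

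In 2 other transcripts of large contrast the 36 hpf level came mostly from replicate 2. ENSDART00000028610.7 (3227 bases) had 1338, 1717 and 1352 CPM at 72 hpf, against 0.736, 15.0 and 1.56 CPM at 36 hpf. ENSDART00000166505.2 (4462 bases) had 962, 1123 and 1027 CPM at 72 hpf, against 1.07, 21.7 and 0.653 CPM at 36 hpf. Replicate 2 thus set most of their 36 hpf means, and it lowered their ratios of 255 and 133 rather than raising them.

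The remaining 2 of the largest contrasts, beside ENSDART00000169706.2 above, lay near the threshold at 72 hpf. ENSDART00000100234.5 (5937 bases) had 500.6, 599 and 715 CPM at 72 hpf, against 5.81, 5.91 and 23.6 CPM at 36 hpf. ENSDART00000039482.4 (1809 bases) had 567, 863 and 509 CPM at 72 hpf, against 0, 18.0 and 25.5 CPM at 36 hpf. The count of 0 in replicate 1 at 36 hpf allows a level of up to 0.285 CPM (3 counts in that library), and because reads of this transcript were shared with others, the 0 can also come from how shared reads were assigned. Over the 69, 7 transcripts were under 50 CPM in every 36 hpf library, and 8 were under 5% of their 72 hpf mean there.

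Across all transcripts that passed the filter on low counts, edgeR's quasi-likelihood test called 37 of 17711 higher at 72 hpf (0.209%) at a Benjamini-Hochberg adjusted p under 0.05. Among the 69, all of which passed that filter, 13 were called, and nothing can be read from this share since the same contrast chose the transcripts. The ratios of the 13 ran from 7.01 to 1590-fold, and 10 of them were at 10-fold or more. Another 9 transcripts at 10-fold or more were not called. Among the 9 were ENSDART00000028610.7, ENSDART00000166505.2, ENSDART00000100234.5 and ENSDART00000039482.4, at edgeR adjusted p of 0.0759, 0.133, 0.0562 and 0.276. The most abundant of the 69, ENSDART00000043298.7, was also not called (edgeR adjusted p 0.0882). The median 36 hpf CV of the 9 was 0.903, against 0.383 in the 13, not all of which were at 10-fold or more. The test itself uses the spread between libraries, so this difference is partly built into the calls. Fewer were called higher in each run with 1 library left out, among the 69 and over all transcripts tested. These runs also set the filter on low counts anew and tested more transcripts, so the 2 changes cannot be told apart. With replicate 1, 2 or 3 at 72 hpf left out, 1, 7 and 0 of the 69 were called. Over all transcripts, 1 of 21326, 26 of 21405 and 0 of 20115 were called higher in these runs. Leaving out replicate 1, 2 or 3 at 36 hpf gave 1, 3 and 1 calls among the 69, and of the 3 only 1 was among the 13. Over all transcripts these were 1 of 21217, 3 of 19911 and 1 of 19832. With DESeq2 35 of the 69 were called and with limma-voom 34, against 2.81% and 1.49% of all transcripts tested. In edgeR with relative log expression factors 10 were called, against 0.181%, and with the replicate number as a block 6, against 0.0395%. With no filter on low counts edgeR called 20, against 0.239%, and with a stricter filter 35, against 1.82%.

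The called transcripts, apart from ENSDART00000010896.5, ENSDART00000063912.4 and ENSDART00000169706.2 above, are given in 3 groups by their mean level at 36 hpf, lowest group first. ENSDART00000099880.3 (2171 bases) had 1526, 943 and 1513 CPM at 72 hpf, against 27.3, 28.8 and 38.7 CPM at 36 hpf. ENSDART00000091532.6 (4667 bases) had 1021, 1011 and 650.3 CPM at 72 hpf, against 61.4, 41.3 and 21.9 CPM at 36 hpf. ENSDART00000088643.5 (4757 bases) had 1070.4, 746 and 809 CPM at 72 hpf, against 73.0, 79.6 and 32.3 CPM at 36 hpf. In each of these 3 every 72 hpf library was above every 36 hpf library by several fold.

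Intermediate levels at 36 hpf were seen in 5 further called transcripts. ENSDART00000129400.3 (3112 bases) had 2667, 1925 and 2569.9 CPM at 72 hpf, against 116, 91.3 and 40.9 CPM at 36 hpf. ENSDART00000137573.1 (1694 bases) had 1704, 1103 and 1601 CPM at 72 hpf, against 108, 105 and 60.0 CPM at 36 hpf. In both, replicate 3 was the lowest library at 36 hpf but not at 72 hpf. ENSDART00000101204.3 (3078 bases) had 1140.3, 1148 and 1522 CPM at 72 hpf, against 143, 76.5 and 85.4 CPM at 36 hpf. ENSDART00000132920.2 (7430 bases) had 634, 1338 and 1564 CPM at 72 hpf, against 59.1, 119 and 94.6 CPM at 36 hpf. ENSDART00000022348.7 (2541 bases) had 2369.9, 2676 and 1954 CPM at 72 hpf, against 173, 47.6 and 174 CPM at 36 hpf. Of these 5, ENSDART00000132920.2 alone had a larger CV at 72 hpf than at 36 hpf, at 0.411 and 0.331.

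The last 2 called transcripts had the highest 36 hpf levels of these. ENSDART00000161276.1 (1279 bases) had 1052, 1205 and 1159.9 CPM at 72 hpf, against 205, 152 and 130.4 CPM at 36 hpf. ENSDART00000066945.5 (5620 bases) had 3759.9, 2216 and 2227 CPM at 72 hpf, against 433, 200.2 and 288 CPM at 36 hpf. In both the stages were well separated, at ratios of 7.01 and 8.90.

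Of the transcripts not named so far, some are given here by ratio, picked after their values were seen. Between 10 and 50-fold, ENSDART00000019155.6 (3396 bases) had 1177, 2085 and 1325 CPM at 72 hpf, against 206, 91.7 and 77.5 CPM at 36 hpf. ENSDART00000141068.1 (2699 bases) had 1379.8, 1326 and 854 CPM at 72 hpf, against 115, 63.4 and 22.2 CPM at 36 hpf. In the second, replicate 3 was the lowest library at both stages. Between 5 and 10-fold, ENSDART00000017424.7 (1263 bases) had 819, 680.4 and 792 CPM at 72 hpf, against 141, 67.4 and 62.5 CPM at 36 hpf. ENSDART00000020425.8 (3597 bases) had 932, 629 and 887 CPM at 72 hpf, against 157, 65.7 and 89.7 CPM at 36 hpf. ENSDART00000144149.2 (2397 bases) had 843, 1339 and 900.5 CPM at 72 hpf, against 192, 176 and 159 CPM at 36 hpf. The last was steady at 36 hpf, with a CV of 0.0936, and the other two were highest in replicate 1 at both stages.

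Between 2 and 5-fold, ENSDART00000122628.2 (1557 bases) had 2029, 1823 and 1534 CPM at 72 hpf, against 315, 517 and 356 CPM at 36 hpf. ENSDART00000127667.2 (1749 bases) had 989, 1019 and 1496 CPM at 72 hpf, against 293, 250.4 and 252 CPM at 36 hpf. ENSDART00000169337.1, at 966 bases the shortest of the 69, had 933, 629 and 796 CPM at 72 hpf, against 151, 350.2 and 209.8 CPM at 36 hpf. All 3 kept the stages apart. Under 2-fold, ENSDART00000104025.4 (2831 bases) had 671, 1054 and 681 CPM at 72 hpf, against 475, 446 and 458 CPM at 36 hpf. Its 36 hpf CV of 0.0317 was the smallest of the 69, so that a ratio of 1.74 was enough to separate the libraries. ENSDART00000155252.2 (1407 bases) had 924, 729.8 and 855 CPM at 72 hpf, against 727, 496 and 421 CPM at 36 hpf, and here the nearest libraries of the stages were 729.8 and 727 CPM.

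In 58 of the 69 the lowest 72 hpf library was above the highest 36 hpf library, as held for 8.14% of the 17711 tested transcripts. The rule favours such transcripts, so the share says nothing further about them. The stages overlapped in the other 11, whose ratios ran from 1.1 to 4.73, and 8 of these 11 had a 36 hpf mean of 500 CPM or more. Among them are those with the smallest contrast. ENSDART00000064558.3 (3005 bases) had 844, 613 and 562 CPM at 72 hpf, against 861, 556 and 417 CPM at 36 hpf, so that its highest library of all was at 36 hpf. ENSDART00000101655.4 (2513 bases) had 530.2, 604 and 595 CPM at 72 hpf, against 391, 587 and 442 CPM at 36 hpf. ENSDART00000160585.1 (1648 bases) had 526, 882 and 837 CPM at 72 hpf, against 623, 495 and 376 CPM at 36 hpf. In each of these 3 at least 1 library at 36 hpf was above at least 1 at 72 hpf. They met the rule because 1 or 2 of their 36 hpf libraries lay under 500 CPM.

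ENSDART00000031650.7 (2302 bases) had 668, 2674 and 1179 CPM at 72 hpf, against 228, 1996 and 1360.3 CPM at 36 hpf, a ratio of 1.26. It has the same listed length as ENSDART00000111042.4, the third most abundant of the 69. In both transcripts replicate 2 was the highest library and replicate 1 the lowest at each stage, and neither had whole counts in all libraries. Whether these 2 share reads with each other was not tested.

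Among libraries of 1 stage, the 69 transcripts varied less at 72 hpf than at 36 hpf when all 6 libraries were used. The median CV was 0.244 at 72 hpf and 0.383 at 36 hpf, and the rule contributes to this, because it sets a lower limit in every 72 hpf library and none at 36 hpf. The 36 hpf value depended on replicate 1, and was 0.203 from the 2 libraries without it, against 0.388 and 0.371 without replicate 2 or 3. From 2 libraries, the 72 hpf value was 0.219, 0.197 and 0.275 without replicate 1, 2 or 3. The order of the stages was therefore not settled. The highest 72 hpf library was under 2 times the lowest in 52 transcripts, and the same held at 36 hpf for 33. A ratio of 5 or more between the highest and the lowest library was found in 5 transcripts at 72 hpf and in 13 at 36 hpf. In 11 of the 13 replicate 1 was the lowest 36 hpf library. Over the 69, however, replicate 1 was the highest 36 hpf library in 36 transcripts and the lowest in 26. Across the 69 transcripts, Pearson's r of log2(CPM + 1) was 0.48 to 0.70 between 72 hpf libraries, 0.69 to 0.84 between 36 hpf libraries and -0.15 to 0.29 between libraries of different stages. These describe transcripts of the same libraries, which are not independent of one another, and the choice by level narrows the range at 72 hpf.

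Of the 5 transcripts with a ratio of 5 or more between the highest and the lowest 72 hpf library, 4 shared an order of libraries. The largest CV at 72 hpf was that of ENSDART00000075465.4 (1471 bases), with 782, 3978 and 536 CPM at 72 hpf, against 124, 263 and 527 CPM at 36 hpf. ENSDART00000129561.2 (3311 bases) came next, with 1016, 4310.0 and 694 CPM at 72 hpf, against 41.5, 252 and 1007 CPM at 36 hpf. In these and in ENSDART00000123003.2 and ENSDART00000158825.2, replicate 2 was the highest and replicate 3 the lowest library at 72 hpf, while replicate 3 was the highest and replicate 1 the lowest at 36 hpf. The same order was found in 8 of the 69, a group picked out after its values were seen. Not all 8 varied widely, since ENSDART00000063912.4 was among them, with a CV of 0.0924 at 72 hpf and 0.120 at 36 hpf. The group also took in the longest of the 69, ENSDART00000090679.6 (15886 bases), with 1249.7, 2679 and 763 CPM at 72 hpf, against 133, 650.1 and 831 CPM at 36 hpf. The 8 held 1.49, 2.85 and 0.823% of the counts at 72 hpf, against 0.0854, 0.243 and 0.695% at 36 hpf. They were picked by their order of libraries, so the order of these shares was fixed beforehand. Of the 8, 4 overlapped between the stages and none had whole counts in all 6 libraries. ENSDART00000105933.3 (3037 bases), the other transcript with a ratio of 5 or more at 72 hpf, had a different order, with 4149.6, 798 and 1785 CPM at 72 hpf, against 478, 309 and 344 CPM at 36 hpf. Its CV at 72 hpf (0.767) and that of ENSDART00000031650.7 (0.692), also of another order, were above that of ENSDART00000158825.2 (0.681).

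**Figure D3:**
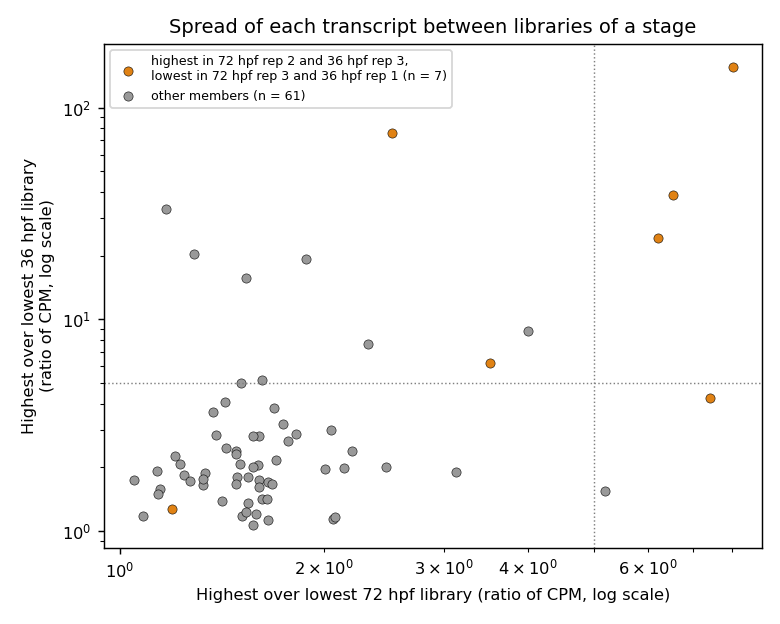
Ratio of the highest to the lowest library (CPM, log axes) within 72 hpf on the horizontal axis and within 36 hpf on the vertical axis, 1 point per transcript, with dotted lines at a ratio of 5. ENSDART00000039482.4 is left out because its lowest 36 hpf value is 0; 7 orange points are the remaining transcripts with the shared order of libraries, and most of the 69 lie at the lower left, under 2 at 72 hpf.

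At the other end, 3 transcripts were nearly level across the 72 hpf libraries. ENSDART00000138953.1 (991 bases) had 606, 579 and 602 CPM at 72 hpf, against 139, 126 and 79.5 CPM at 36 hpf. ENSDART00000142820.3 (3658 bases) had 608, 579 and 626 CPM at 72 hpf, against 209.9, 191 and 226 CPM at 36 hpf. The third was ENSDART00000161276.1 above. Their CVs at 72 hpf were 0.0249, 0.0386 and 0.0691, and in each the 36 hpf libraries lay well under the 72 hpf ones.

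Levels per length ordered the 69 differently. CPM counts reads whatever the length of a transcript, whereas TPM, the deposited transcript abundance with a fixed sum per library, is scaled by effective length. The lengths ran from 966 to 15886 bases with a median of 2618, beside 2339 over the 17711 tested transcripts. In TPM, 41 of the 69 reached 500 in all 3 libraries at 72 hpf, and 16 were under 500 in all 3. Of the 31 transcripts over 3000 bases, 7 reached 500 TPM in all 3 libraries. Across the 69 the Spearman correlation at 72 hpf was 0.53 between mean CPM and mean TPM and -0.80 between length and mean TPM, where the choice by counts helps to set the second. The 4 highest in TPM were all among the 6 highest in CPM. ENSDART00000043298.7 had 7613 ± 1832 TPM at 72 hpf and 769 ± 527 TPM at 36 hpf, and ENSDART00000063912.4 had 4554 ± 269 TPM at 72 hpf and 591 ± 93.7 TPM at 36 hpf (SD, n = 3 each). ENSDART00000158825.2 had 3969.7 ± 2685 TPM at 72 hpf and 1037 ± 1167 TPM at 36 hpf, and ENSDART00000111042.4 had 3519.8 ± 1363 TPM at 72 hpf and 1349 ± 962 TPM at 36 hpf (SD, n = 3 each). The 15886-base transcript, ENSDART00000090679.6, was at 178 ± 109.6 TPM at 72 hpf and 58.2 ± 40.1 TPM at 36 hpf, in spite of 1564 CPM at 72 hpf.

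**Figure D4:**
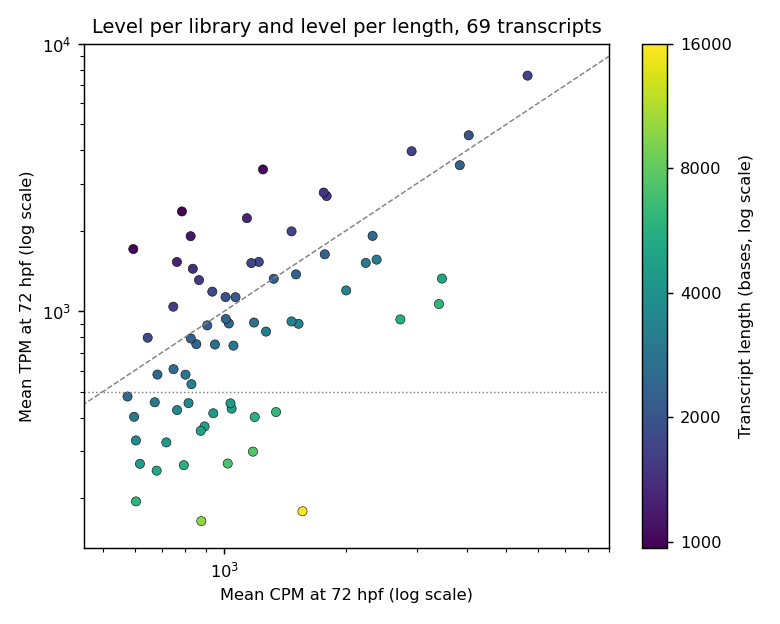
Mean level of the 69 transcripts over the 3 libraries at 72 hpf, as CPM on the horizontal and TPM on the vertical axis (both log), coloured by length; the dashed line marks equal values and the dotted line 500 TPM. Short transcripts (dark) lie above the dashed line and long ones (green and yellow) under it.

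Estimated counts were whole numbers in all libraries for only part of the set. Whether the reads of that part could also match other transcripts was not tested. In every library, 17 of the 69 (24.6%) had estimated counts within 1e-06 of a whole number, beside 20.7% of the tested transcripts, and for the other 52 some reads were divided among transcripts. In 16 of the 17 the stages did not overlap, beside 58 of all 69 and 8.14% of the 17711 tested transcripts. The rule favours such transcripts, so this says nothing further about the 17. On the scale log2(CPM + 1), the median difference of the stage means was 2.57 in the 17, against 2.22 in the other 52. Among the 17, after ENSDART00000010896.5 and ENSDART00000099880.3 in ratio, ENSDART00000055380.5 (2319 bases) had 1359, 1412 and 2557 CPM at 72 hpf, against 4.66, 81.2 and 90.2 CPM at 36 hpf. ENSDART00000054460.5 (3158 bases) had 874, 637 and 978 CPM at 72 hpf, against 4.94, 77.3 and 17.8 CPM at 36 hpf. In both, replicate 1 was the lowest 36 hpf library by a wide margin.

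The threshold of 500 CPM divided transcripts with close values. Just inside it at 72 hpf were ENSDART00000100234.5 and ENSDART00000039482.4, with their lowest 72 hpf libraries at 500.6 and 509 CPM, and ENSDART00000088042.6 (9870 bases), with 854, 1274 and 506 CPM at 72 hpf, against 0.634, 22.8 and 48.0 CPM at 36 hpf. Just outside it were ENSDART00000162317.1, ENSDART00000135230.1 and ENSDART00000023834.6, whose lowest 72 hpf libraries were at 496, 496 and 492 CPM. Just inside the condition at 36 hpf were ENSDART00000063912.4, with a lowest 36 hpf library at 495 CPM, and ENSDART00000148404.1 (2901 bases), with 769.5, 1129 and 1266 CPM at 72 hpf, against 507, 481 and 682 CPM at 36 hpf. The third was ENSDART00000134514.1 (5680 bases), with 1664, 808 and 1099.8 CPM at 72 hpf, against 465, 531 and 520.0 CPM at 36 hpf. Just outside were ENSDART00000055609.3, ENSDART00000161586.2 and ENSDART00000052511.5, with lowest 36 hpf libraries at 527, 543 and 557 CPM. The nearest values on either side of the threshold at 72 hpf were thus 500.6 and 496 CPM.

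Beside the 69, 45 transcripts reached 500 CPM in all 6 libraries, and 98 met the rule with the stages exchanged. The median CV within 72 hpf was 0.244 in the 69, 0.233 in the 45 and 0.778 in the 98, and within 36 hpf it was 0.383, 0.132 and 0.159. In the 69 and in the 98 the spread was wider at the stage where the rule set no lower limit. In the 69 this depended on replicate 1 at 36 hpf, as the 36 hpf value was 0.203 from the 2 libraries without it. With 1 library left out at 72 hpf, the 72 hpf value was 0.197 to 0.275. Median lengths were 2618 bases in the 69, 2417 in the 45 and 2262 in the 98. The share with whole counts was 24.6, 28.9 and 26.5%. No test was made of these differences, since transcripts are not replicates.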

How the data were processed

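RNA was measured in 6 samples, 3 at 72 hpf and 3 at 36 hpf, grouped by the stage in their titles. Per the labels' protocols, RNA was extracted with a column kit and amplified with the Smart-seq v4 ultra-low input kit, and neither molecular identifiers nor strand are mentioned. The deposited estimated counts per transcript need not be whole, and the deposited TPM values are scaled by effective length, per the file headers. RSEM 1.2.15, Bowtie2 2.1.0, Trimmomatic, FastQC and the build danRer10 stand in the submitters' processing notes; which program wrote the deposited files is not stated there.

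CPM was computed from the estimated counts of each file. The 13 rows with identifier numbers from 93596 to 93625 were left out as mitochondrial; 0 of them met both level conditions. The test across transcripts was run on estimated counts rounded to whole numbers, with edgeR 4.0.16 in R 4.3.3 (TMM factors, filterByExpr, quasi-likelihood F test, stage as the only term, Benjamini-Hochberg adjustment over 17711 transcripts). DESeq2 1.42.0 and limma-voom (limma 3.58.1), relative log expression factors, other filters, a replicate block and leaving out each library were alternatives. All 3 tools were tested on simulated data. Ratios are of mean CPM, 72 hpf over 36 hpf.

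Transcripts named were the 6 of highest mean CPM, the 6 largest and 4 smallest ratios on log2(CPM + 1), those called by edgeR, the 4 highest in TPM, the 3 least and 3 most variable at 72 hpf and those nearest the threshold. The others named in the text were added after their values were seen. The rule, its members and the tests were chosen with earlier results of these data known. Figures were drawn with matplotlib 3.10.9.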

Additional observations from a re-analysis of the deposited data

How the results depend on the processing

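The number of transcripts that met the rule was 185 at 250 CPM and 23 at 1000 CPM, against 69. It was 43 where all 3 libraries at 36 hpf had to be under 500 CPM. Leaving out 1 library at 72 hpf, which can only add transcripts, gave 87 to 106. Leaving out 1 library at 36 hpf, which can only remove transcripts, gave 62 to 68. With TMM library sizes the number that met the rule was 66 and with 500 TPM in place of CPM 72. These 72 were not the same set, since only 41 of the 69 reached 500 TPM in all 3 libraries at 72 hpf. The share of the 69 at 72 hpf was 8.44% of TPM, against 9.31% of counts. Their median difference on the log2 scale was 2.17 to 2.52 when 1 library was left out, and the median CV was 0.197 to 0.275 within 72 hpf and 0.203 to 0.388 within 36 hpf. The number called by edgeR, 13, was 0 to 7 when 1 library was left out, 20 with no filter on low counts and 35 with the stricter filter (at a stage every library at 1 CPM, and a mean count of 10); DESeq2 called 35, among them all 13, and limma-voom 34, among them 10 of the 13. The cause was not tested. With the replicate number as a block, 6 of the 13 were called. Deviations of libraries with the same number correlated at 0.0091, -0.017 and 0.040, so the libraries were not treated as paired. Over all transcripts tested, the median log2 fold change was -0.0701 in the main edgeR run, so a median near 0 depended on the processing. It shifted by 0.15 with relative log expression factors or DESeq2, -1.04 with limma-voom and -0.83 with the replicate block. The shift was -0.26 with no filter and -0.49 to 0.13 with 1 library left out. The count without overlap between the stages and the count under 500 CPM in all 36 hpf libraries stayed within 1.5 times under each alternative run. The same held for the count at 500 TPM and the count with whole values. Depth limits the lowest 36 hpf levels, where 3 counts stood for 0.164 to 0.285 CPM.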
